A study of Mus musculus with 7 samples.

Results

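Mammary glands of 3 wild-type FVB mice were compared, array by array, with a pooled mouse reference RNA. These 3 arrays were all the arrays of the series labelled wild-type, out of 7, and they were chosen by that label alone. The other 4 arrays held glands of PRA transgenic mice, bigenic animals in which a CMV-driven GAL-4 transgene activates PR-A, the A isoform of the progesterone receptor, through a UAS sequence. All the mice were nulliparous females 20 to 25 weeks old, taken at diestrus. Each array carried RNA of 1 animal, from a single abdominal gland whose lymph nodes had been excised. Gland RNA was labelled with the red dye Cy5, and Universal Mouse Reference RNA, a mix of RNA from 11 mouse cell lines, with the green dye Cy3. Those lines derive from embryo, embryo fibroblasts, T and B lymphocytes, mammary gland, kidney, myoblasts, hepatocytes, skin, alveolar macrophages and testis. The question here was which genes the normal gland holds above or below that mixture.

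The gland of an adult virgin mouse is a sparse tree of epithelial ducts set in a fat pad. The ducts have an inner luminal layer, part of which carries estrogen and progesterone receptors, and an outer contractile basal layer. The reference comes from cells kept growing in culture, so it stands for dividing cells of many lineages rather than for any tissue.

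The arrays were SurePrint G3 mouse gene expression arrays, which hold 56605 distinct probes besides the control spots. Cy5 was well above background for 66.2%, 65.1% and 62.7% of the probes in replicates 1, 2 and 3, and Cy3 for 54.0%, 53.7% and 53.2%. No spot was saturated. For spike-in control RNAs of known ratio, the observed log ratio rose with the expected one with slopes of 0.837, 0.825 and 0.830. On none of the 3 arrays was this slope flagged as in range by the scanner software. A slope under 1 means that ratios came out smaller than expected, and the fold sizes below were not corrected for it. Between pairs of the wild-type arrays the log2 ratio of gland to reference correlated across probes detected in both channels with r = 0.931 for replicates 1 and 2, 0.910 for 1 and 3, and 0.905 for 2 and 3. Probes are not independent replicates, so these values only describe the arrays. The number of arrays limits the precision. The dyes were never swapped, so a probe's own dye bias and a difference between gland and reference cannot be told apart. The reference was the same RNA on every array, yet its log2 Cy3 signal differed between pairs of arrays by a median of 0.13 to 0.29 per probe. How much of the spread of a ratio comes from the arrays and how much from the mice was not tested.

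The label of the mice was checked first. Xist, the RNA that coats the inactive X chromosome of female cells (probe at chrX:100662174-100662233, mm9), gave log2 ratios between 1.03 and 1.12, with a mean of 1.09 ± 0.05 (SD, n = 3), or 2.12-fold more signal from the gland (adjusted p = 0.00230, limma). The Y-linked genes Ddx3y, Eif2s3y and Uty were well above background in the reference on all 3 arrays and in the gland on none. The gland was at least 3.63-fold lower for Ddx3y, at least 15.9-fold for Eif2s3y and at least 7.90-fold for Uty. Here and below, such a bound sets the bright channel against the lowest signal called well above background in the dim channel. For these 3 genes a different background correction and dye normalization (normexp and loess) gave mean log2 ratios of -0.83, -1.94 and -1.28. Ddx3y then fell short of 2-fold. Kdm5d, also Y-linked, had probes that disagreed. The brightest of them gave equal signal in both channels (-0.17, -0.19 and 0.04), while the other probe with signal on every array was detected in the reference alone, with Cy5 between 1.87 and 3.32 and Cy3 between 86.1 and 103.

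**Figure D1:**
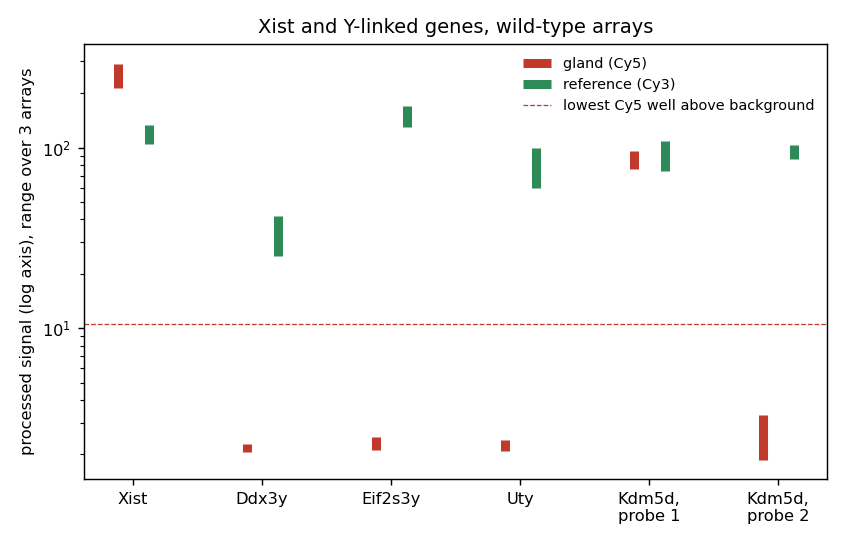
Processed signal of gland (Cy5, red) and reference (Cy3, green) for Xist and 4 Y-linked genes on a log axis, with each bar running from the lowest to the highest of the 3 wild-type arrays. The dashed line is the highest of the 3 arrays' lowest Cy5 signals called well above background. Gland signal of Ddx3y, Eif2s3y, Uty and 1 probe of Kdm5d lies under the line, and the other Kdm5d probe has equal signal in both channels.

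A probe was called when its mean log2 ratio passed an adjusted p of 0.05 in limma and was at least 2-fold. Of 35093 probes tested, 6164 were higher in the gland and 4971 lower, or 17.6% and 14.2%. Part of this was set by detection itself. For 3978 probes the gland was detected on every array and the reference on none, and 2520 of them were called higher. For 364 probes only the reference was detected, and 364 were called lower. In such probes the direction follows from the filter. The spread of blank control spots was wider in Cy3 (5.36 to 6.21) than in Cy5 (1.91 to 2.26), and the part this had in the larger class was not tested. Among the 28078 probes detected in both channels, 3096 were higher and 4133 lower (11.0% and 14.7%). Of the called probes in this class 42.8% were higher, against 57.3% after a different background correction and dye normalization (normexp and loess).

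Gene values below use 1 probe per gene, the brightest over both channels. Of 24892 named genes, 14503 had both channels detected, of which 2171 were higher in the gland and 2000 lower (15.0% and 13.8%). Counts for a gene list are given over its members in this class and are to be read beside those shares. The median log2 ratio of these genes was -0.04, and 0.08 after normexp and loess. The SD between the 3 mice had a median of 0.19 and a 90th percentile of 0.55.

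**Figure D2:**
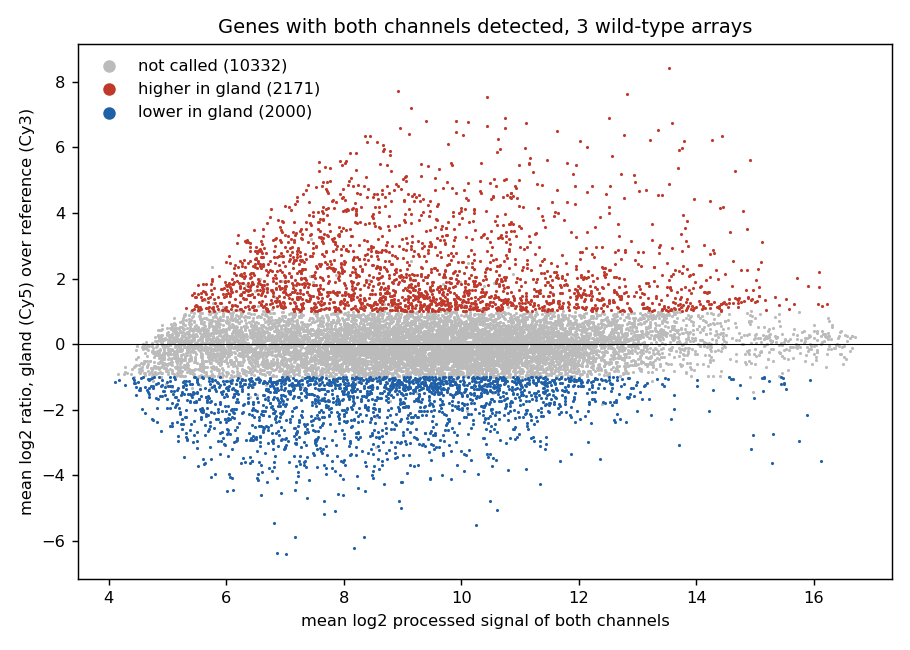
Mean log2 ratio of gland to reference (vertical) against the mean log2 signal of both channels (horizontal) for the 14503 genes with both channels detected, averaged over the 3 wild-type arrays. The 2171 genes called higher in the gland are red, the 2000 called lower are blue and the 10332 not called are grey.

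Genes of fat cells were the furthest above the reference. Among 18 white adipocyte genes, 17 were detected in both channels, and all 17 were higher in the gland, with a median log2 ratio of 5.95. Fabp4, the fatty acid carrier of adipocytes (probe at chr3:10204452-10204511, mm9), gave gland signals of 211795, 273018 and 184478 against reference signals of 557, 790 and 609. Its log2 ratios of 8.57, 8.43 and 8.24 averaged 8.42 ± 0.17 (SD, n = 3), a 341-fold difference and the highest of all genes detected in both channels. Cidec, which fuses lipid droplets, was at 7.75, 7.70 and 7.48 and was 200.1-fold higher. The mice differed little in both genes. Adiponectin (Adipoq), the main secreted hormone of fat, was 75.7-fold higher and the lipid droplet coat protein Plin1 76.9-fold (adjusted p = 0.000257 for each, limma). Leptin (Lep), the satiety hormone, had the smallest difference of the list, with 0.56, 2.21 and 1.15, and it no longer passed the test when replicate 2 or 3 was left out (0.85 and 1.39). Acvr1c, a receptor of the activin family that fat cells carry, was detected in the gland alone and was at least 154-fold higher. In a whole gland, fewer cells of a type and less RNA per cell cannot be told apart, and this holds for every list.

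Genes of fatty acid and triglyceride synthesis followed the same pattern, with 14 of 15 higher and a median of 3.36. The 3 enzymes that open the list differed between the mice. Fatty acid synthase (Fasn) was at 6.07, 4.81 and 5.93. Acetyl-CoA carboxylase (Acaca) was at 3.70, 2.47 and 3.38. ATP citrate lyase (Acly), which supplies their substrate, was at 3.45, 1.60 and 3.29. Replicate 2 was lowest in each, yet in each gene all 3 mice were above the reference. The insulin-responsive glucose transporter Slc2a4 was 100.4-fold higher and even across mice (6.78, 6.73 and 6.45). Mlxipl, which encodes the carbohydrate response factor ChREBP, was the exception at -0.35 ± 0.03, and its probe brightest in Cy5 gave 4.28. Of 10 genes linked to brown fat, 4 of the 6 detected in both channels were higher. Cidea was 69.5-fold higher and Cox8b, a cytochrome oxidase subunit of brown fat and muscle, 112-fold. Ucp1, the uncoupling protein that defines brown fat, was detected in the gland on every array but not in the reference on every array. It was at 5.57, 4.67 and 5.41, with a mean of 4.21 after normexp and loess.

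Most general epithelial genes were above the reference, with a lower median ratio than the white adipocyte genes. Of 10 general epithelial genes detected in both channels, 7 were higher, with a median of 1.67. Epcam, a surface adhesion molecule of epithelia, was 2.74-fold higher, at 1.30, 0.97 and 2.09 (adjusted p = 0.0109, limma). The simple keratins were uneven. Krt7 and Krt19 were higher, at 1.55 ± 0.90 and 1.78 ± 1.00 (SD, n = 3), but did not pass without replicate 3 (1.70 and 1.88). Krt8 was at 0.73, -0.45 and 0.40 and did not pass, and Krt18, at 1.33, 0.72 and 0.95, fell just short of 2-fold but passed without replicate 2 or 3 (1.14 and 1.03) and after median centring (1.02). E-cadherin (Cdh1), which joins epithelial cells, was at 4.80, 5.09 and 5.50, with the reference detected on 1 array only and a mean of 3.46 after normexp and loess.

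Of 11 genes of hormone-sensing luminal cells, 8 were detected in both channels and 4 of them were higher. The estrogen receptor gene Esr1 had log2 ratios of 3.55, 3.00 and 2.82 and was 8.72-fold higher (adjusted p = 0.000851, limma). The progesterone receptor gene Pgr was detected in the gland alone, with Cy5 of 611, 99.2 and 68.6. Replicate 1 thus held several times the Pgr signal of the other mice. Over the 3 mice the difference was at least 8.11-fold, with a mean log2 ratio of 2.10 after normexp and loess. Areg, the amphiregulin gene, an epithelial growth factor induced by estrogen, was also highest in replicate 1, at 4.53, -0.24 and 2.07, and did not pass. The prolactin receptor gene Prlr was at 8.37, 8.22 and 7.33, again with the reference detected on 1 array, and at 5.90 after normexp and loess. Of the genes of luminal progenitors, which can form milk-producing alveoli, 4 of the 5 detected in both channels were higher. Elf5, the alveolar transcription factor, was at 6.03, 5.95 and 5.87 with the reference detected on 2 arrays. The receptor Kit and the retinaldehyde dehydrogenase Aldh1a3 were detected in the gland alone, at least 61.7-fold and 52.6-fold higher. After normexp and loess the mean log2 ratios were 4.94 for Elf5, 4.92 for Kit and 4.47 for Aldh1a3.

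Milk protein genes were detected in these virgin glands. The 3 caseins that open the list were called higher, with log2 ratios of 8.89, 8.92 and 10.93 for Csn2, 7.36, 7.10 and 7.84 for Csn1s1, and 8.40, 8.46 and 8.97 for Csn1s2a. The reference was detected on 2 arrays for each, so 1 of the 3 ratios of each casein was taken against a signal not well above background. After normexp and loess their means were 7.89, 6.77 and 7.33. The gland was detected on every array for all 12 milk genes, but the reference on every array for only 7, of which 3 were called higher. The level differed widely between mice. The processed Cy5 signal of Csn2 was 2204, 21929 and 114105, and that of Glycam1, which encodes a mucin of milk and of lymph node vessels, 16619, 289 and 106183. Glycam1 did not pass without replicate 1 or 3 (2.84 and 2.61). The Cy3 signal of Glycam1, from the same reference RNA, was 752, 171 and 3491 and thus moved in the same order. Whether signal of one dye entered the other channel was not tested. Among the 163 genes whose Cy3 signal differed at least 2-fold between the arrays, the array highest in Cy3 was also highest in Cy5 for 142 (87.1%), against 65.4% of all 14503 genes detected in both channels. Their median log2 ratio was 3.35.

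Of 10 basal genes detected in both channels, 6 were higher and 1 lower, with a median of 2.55. The basal keratin genes Krt14 and Krt5 were 9.61-fold and 7.93-fold higher, and Krt5 was nearly identical in the 3 mice (3.00, 2.99 and 2.97). Smooth muscle myosin Myh11 was at 5.51, 4.52 and 4.92, with the reference detected on 2 arrays and a mean of 3.35 after normexp and loess. Trp63, the transcription factor of basal cells, gave 0.20, 0.22 and -0.02 and did not pass. Igfbp2, a binding protein of insulin-like growth factors, was 7.26-fold lower in the gland, at -2.97, -3.41 and -2.20.

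**Figure D3:**
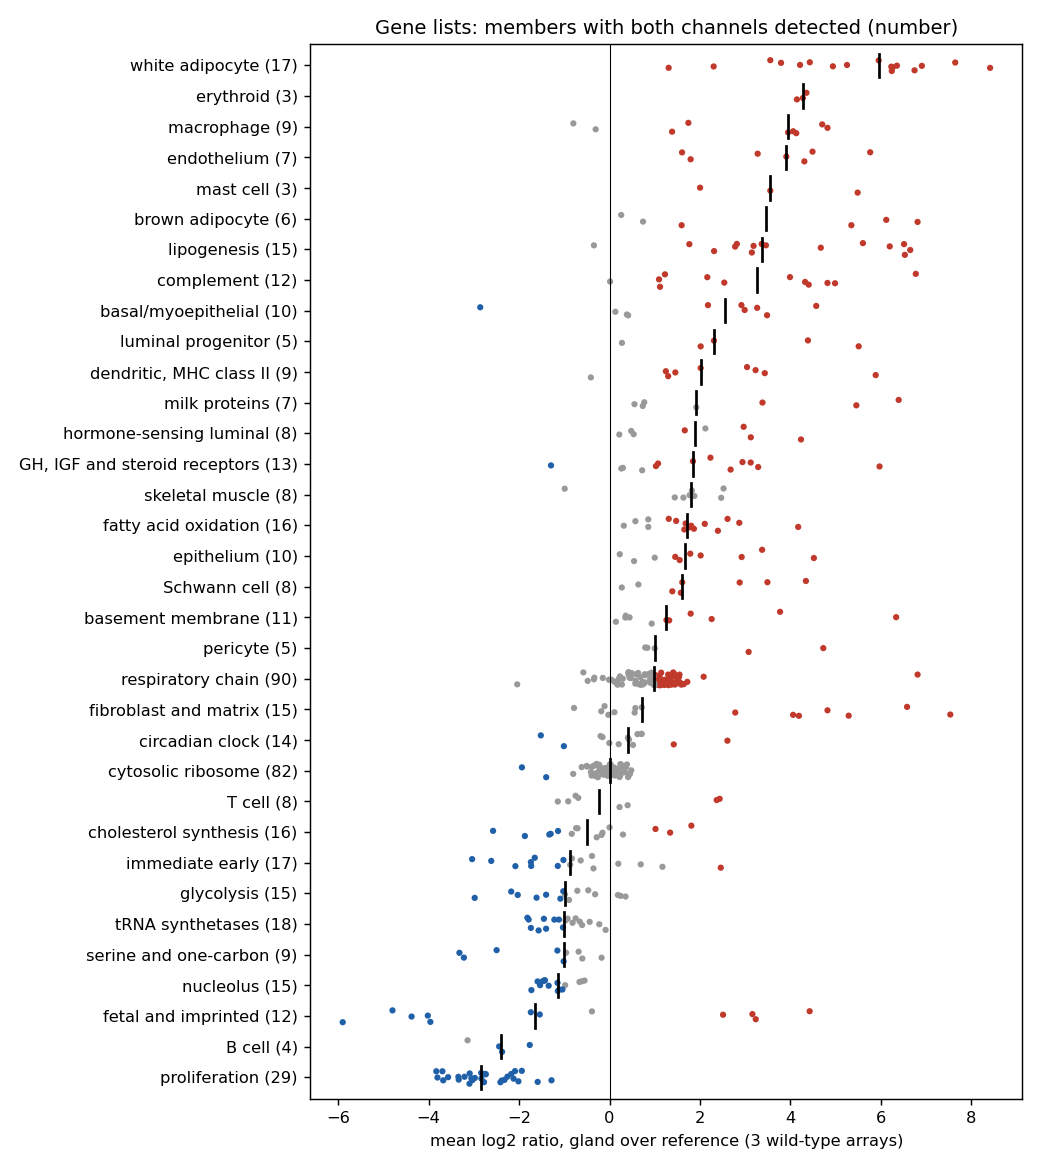
Mean log2 ratio of gland to reference over the 3 wild-type arrays for the members of each gene list that were detected in both channels (number in brackets), ordered by the list median (black bar). Red points were called higher in the gland, blue lower and grey were not called. White adipocyte genes lie furthest to the right with a median of 5.95, and proliferation genes furthest to the left with -2.83.

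The connective tissue list was split. Of 15 fibroblast and matrix genes, 7 were higher and none lower, with a median of only 0.71. The small proteoglycans that coat collagen fibrils differed among themselves, with Lum at 8.08, 7.37 and 7.16 (186-fold) and Dcn at 4.68, 4.30 and 3.59 (18.2-fold). The fibroblast receptor Pdgfra was at 0.03, 0.02 and -0.60, and Fmod, another proteoglycan, at -1.22, -1.37 and 0.24, and neither passed, although Fmod was lower without replicate 3 (-1.30). Of 11 basement membrane genes, 6 were higher. The laminin subunits differed in this, as Lama4, a vessel laminin, was 80.9-fold higher and Lama2 13.7-fold, while Lamb2 gave 0.26, 0.41 and -0.25. After normexp and loess Lama4 had a mean log2 ratio of 5.33.

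Most genes of endothelium and Schwann cells were above the reference. All 7 endothelial genes detected in both channels were higher, with a median of 3.91. Pecam1, the junction molecule of endothelium, was at 1.71, 2.20 and 1.47. The endothelial cadherin Cdh5 was detected in the gland alone, at least 80.3-fold higher, and the VEGF receptor Kdr was at 7.04 ± 0.84 (SD, n = 3) with the reference detected on 1 array, and at 5.02 after normexp and loess. Of pericyte genes, Rgs5 was 26.5-fold higher and the potassium channel Kcnj8 at least 58.7-fold, while Pdgfrb, Cspg4 and Notch3 passed the adjusted p but stayed under 2-fold. Cspg4 reached it without replicate 2 (1.11), after normexp and loess (1.09) and after median centring (1.02). Of 8 Schwann cell genes, 6 were higher, among them the myelin gene Mbp. Of the 4 lymphatic genes tested, 2 were detected in the gland alone, 1 with detection on only some arrays was higher, and 1 detected in both channels was lower. Among those detected in the gland alone was Lyve1, a hyaluronan receptor that some macrophages also carry, at least 25.1-fold higher. The lower one was Pdpn (podoplanin), by 3.09-fold.

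Most genes of resident macrophages and mast cells were also above the reference, although the reference includes an alveolar macrophage line. Of 9 macrophage genes detected in both channels, 7 were higher, with a median of 3.95. Mrc1, the mannose receptor of tissue macrophages, was at 7.07, 6.48 and 6.33. Its reference was detected on 2 arrays, and its mean was 5.11 after normexp and loess. Adgre1 (F4/80) was at 1.40, 1.82 and 0.93. The growth factor receptor Csf1r was at 1.92, 1.87 and 1.44, with 0.91 over the median of its probes. Cd68, a lysosomal protein of all macrophages, was at -0.74, -0.57 and -1.09 and did not reach 2-fold. Of 9 genes of dendritic cells and MHC class II antigen presentation, 8 were higher, with H2-Aa 59.1-fold, H2-Ab1 10.8-fold and H2-Eb1 2.74-fold. All 3 mast cell genes detected in both channels were higher, and the mast cell chymase Cma1 was at 5.71, 5.65 and 5.10. Of 12 complement genes, 11 were higher, led by the C1 inhibitor Serping1 (109-fold), and C7 was the exception at -0.04, 0.42 and -0.34. Without replicate 1, 9 of the 12 were higher, and without replicate 2, 8 were. Hemoglobin genes were 17.7-fold higher for Hba-a1, 20.4-fold for Hba-a2 and 19.4-fold for Hbb-bt, and the globin copies are near-identical, so these probes may share signal.

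Lymphocyte genes differed between the mice. Of 10 T cell genes, all were well above background in the gland on every array, and 8 were detected in both channels. Of these 2 were higher and none lower. Their summed gland signal over the list was 26864, 9658 and 9869 in replicates 1, 2 and 3, with Thy1 brightest. The signalling chain Cd3d was at 4.01, 1.00 and 2.09 and did not pass without replicate 3 (2.51). Cd3g was at 0.91, -1.96 and -1.21 and Cd5 at 0.63, -2.16 and -1.91. Replicate 1 was highest in all 8 genes. Without replicate 1, 4 of the 8 were lower than the reference. Il7r, the receptor of the survival cytokine interleukin 7, was detected in the gland alone in all mice, with Cy5 of 1318, 425 and 166. Of the B cell genes, 3 of the 4 detected in both channels were lower. The surface protein Ms4a1 (CD20) was at -0.23, -4.76 and -4.43 and did not pass with all 3 arrays, but it passed without replicate 1 (-4.60), after normexp and loess (-2.36) and with both channels required, an intensity trend or the spread of all 7 arrays. The receptor chain Cd79b, at -0.38, -3.56 and -3.38, passed (adjusted p = 0.0464, limma) but not without replicate 2 or 3 (-1.88 and -1.97) or without the filter on detection. Summed B cell signal was 8831, 4990 and 4862, with Jchain brightest. Lymph nodes had been excised from all the glands, and the part of remaining lymphoid tissue in replicate 1 was not tested. Dntt, an enzyme of immature lymphocytes, was 4.01-fold lower in the gland.

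Skeletal muscle genes differed most between the mice. None of the 8 detected in both channels passed the test, although the median was 1.80. Without replicate 2 the median was 3.23, and without replicate 3 it was 0.68. Mylpf, a myosin light chain of fast muscle, had gland signals of 1039, 48.7 and 5958, with log2 ratios of 2.32, -2.09 and 4.10. Troponin T (Tnnt3) was at 2.73, -1.51 and 4.24 and skeletal actin (Acta1) at 2.09, -0.49 and 4.02. Replicate 3 was highest and replicate 2 lowest in all 8 genes. Summed gland signal over the 14 genes of the list was 23709, 1290 and 134847, with the fast myosin Myh4 brightest, and summed reference signal was 3079, 2476 and 7484. Without replicate 2, 6 of the 8 genes were higher than the reference. The part of muscle tissue taken with the gland was not tested. Of 7 markers of growing myoblasts, 5 were tested, and they were mixed. The adhesion gene Cdh15 was 5.62-fold lower, but at -0.96 after normexp and loess it fell short of 2-fold. Chrna1, at -5.05, -4.57 and -3.23, and the differentiation factor Myog, at -2.87, -1.94 and -2.34, were lower with the gland detected on 1 array only, and after normexp and loess they were at -1.82 and -0.76. Myod1, the myogenic determination factor, was at -0.73 ± 0.49 and did not reach 2-fold, and Msc (musculin) was detected in the gland alone, at least 3.53-fold higher.

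Among the 14503 genes detected in both channels, 1569 (10.8%) differed at least 2-fold between the highest and lowest mouse and 319 (2.20%) at least 4-fold. Of the 319, replicate 3 was highest in 202 and replicate 2 lowest in 219. Among genes with the reference detected on all 3 arrays and the gland on at least 1, 7 of the 10 with the largest SD are known from striated muscle. They were Fabp3, Pgam2, Actn3, Mylpf, Tnnt3, Myom2 and Tnni2, with Fabp3, a fatty acid carrier of muscle and heart, at -0.40, -3.39 and 4.23. The other 3 were Zfp697, Ifi44l and Lnpk. Zfp697 and Lnpk were not detected in the gland of replicate 1 alone. Ifi44l, an interferon-induced gene, was detected in the gland of replicate 1 alone, at -1.16. Where the gland was not detected the ratio was taken against background, so the SD of these 3 genes rests on such values.

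**Figure D4:**
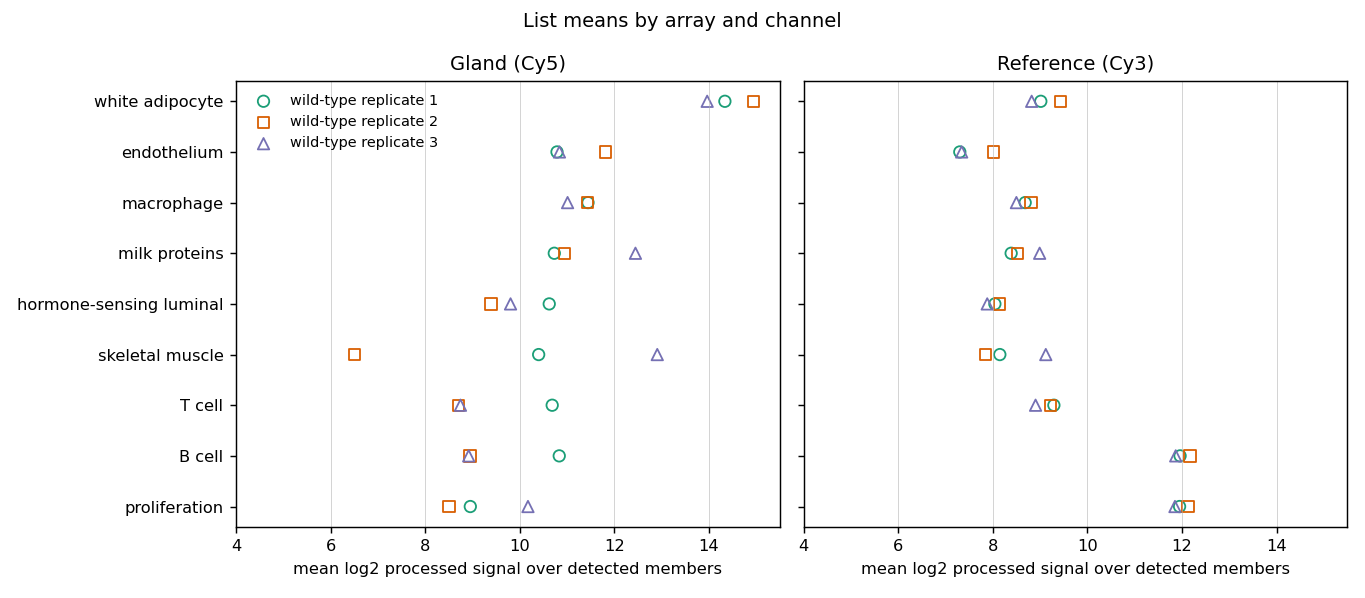
Mean log2 processed signal over the members of 9 gene lists detected in both channels, for the gland (Cy5, left) and the reference (Cy3, right) of each wild-type array. Skeletal muscle spans 6.51 to 12.91 in the gland and 7.84 to 9.12 in the reference, T cell and B cell genes are highest in replicate 1, and proliferation genes are highest in replicate 3 at 10.17.

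Among genes detected in both channels, every called gene of oxidative metabolism was higher in the gland and every called gene of glycolysis lower, but many were not called. Of 16 genes of fatty acid oxidation, 12 were higher, with a median of 1.72. The medium-chain dehydrogenase Acadm was at 2.78, 3.19 and 2.63, and Decr1, which handles unsaturated chains, was at 4.17 ± 0.15 (SD, n = 3). Cpt1a, the carnitine transferase that admits fatty acids to mitochondria, was at 0.58, 0.04 and 0.32 and did not pass. Of 90 respiratory chain and ATP synthase genes, 44 were higher and none lower, with a median of 0.99, close to the 2-fold threshold. ATP synthase subunits Atp5a1, Atp5b and Atp5c1 were 2.79-fold, 2.08-fold and 2.18-fold higher by their brightest probes, and over the median of their probes Atp5a1 and Atp5b (0.96 and 0.93) fell short of 2-fold. When the 2-fold difference itself was tested (limma treat), 15 of the 90 passed. Outside this class, the cytochrome oxidase subunit Cox7b2, with the gland detected on 1 array only, was lower at -3.26 ± 1.00 (SD, n = 3), and at -0.68 after normexp and loess, short of 2-fold. Of 15 glycolytic genes, 7 were lower and none higher, with a median of -0.99, and 3 passed when the 2-fold difference itself was tested. The glucose transporter Slc2a1 was 7.90-fold lower (-3.20, -2.97 and -2.78), while the hexokinases Hk1 and Hk2 were at 0.18 ± 0.07 and 0.24 ± 0.16 and did not pass.

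Cholesterol synthesis genes went both ways, with 3 of 16 higher and 5 lower. Hmgcs1, which makes HMG-CoA, was 2.53-fold higher by its brightest probe, with 0.38 over the median of its probes. The late enzyme Sc5d was 3.50-fold higher. Of 13 genes of growth hormone, insulin-like growth factor and steroid signalling, 9 were higher and 1 lower. The growth hormone receptor Ghr was 7.67-fold higher, its target Igf1 9.76-fold and the binding protein Igfbp5 62.7-fold (6.12, 6.08 and 5.71). The receptor Igf1r was the one that was lower, by 2.45-fold. Of 17 immediate early genes, switched on within minutes of stimulation or handling, 8 were lower, 1 was higher and 8 were not called, and 4 were lower when the 2-fold difference itself was tested. Fosb was 6.13-fold lower and Ier3 8.22-fold. Fos was at -2.42, -0.85 and -1.69, and it did not pass without replicate 3 (-1.64). The higher one was Klf2, a factor of endothelium and resting T cells, at 2.63, 2.64 and 2.10. Of 14 circadian clock genes, 2 were higher and 2 lower, shares close to those of all genes. Only 1 was lower without replicate 1, without replicate 2, after normexp and loess or after median centring. Per1 and Per2, core clock repressors, were at 0.20, -0.55 and -0.12 and at -0.22, 0.22 and -0.02, and the clock-controlled factor Hlf was 6.09-fold higher.

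Genes of dividing cells were below the reference without exception. All 29 proliferation genes detected in both channels were lower in the gland, with a median of -2.83. Top2a, the topoisomerase that untangles replicated DNA, had gland signals of 402, 200.1 and 1290 against 6539, 7619 and 6006 in the reference, and log2 ratios of -4.03, -5.25 and -2.22. Mki67, which encodes the proliferation antigen Ki-67, was at -3.94, -5.06 and -1.71 and did not pass without replicate 2 (-2.83), when 21 of the 29 genes were called. Cdk1, the kinase that drives mitosis, was 6.85-fold lower, and Pcna, the replication clamp, 2.44-fold. Replicate 3 was highest and replicate 2 lowest in all 29 genes. The list's mean log2 signal was 8.95, 8.50 and 10.17 in the gland and 11.95, 12.13 and 11.85 in the reference. With the 2-fold difference itself tested, 18 of the 29 passed.

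The promoters of these genes are shown because the members stood together. The motifs were searched on both strands in RefSeq windows of GRCm38.p6 of 300 bases that hold each gene's start. TTTGAA is the core of the cell cycle homology region and reads TTCAAA on the other strand. The box bound by the factor NF-Y is CCAAT, which reads ATTGG on the other strand. Of the 30 genes, 25 had a window, and 11 of these held TTTGAA (44.0%) and 19 held CCAAT (76.0%). Of 27025 genes with a window, 20.2% and 41.1% did. Both motifs stood in 11 of the 25 windows and in 8.97% of all genes. A match of these letters is a description and not a binding site. The windows of 4 of the most lowered members that hold TTTGAA follow from 5′ to 3′, with both motifs in capitals. Some genes were left out of this choice by their chromosome, so a more lowered member may be missing. Top2a lies at chr11:99024140-99024439 on the minus strand, Mki67 at chr7:135716330-135716629 on the minus strand, Kif11, a spindle motor, at chr19:37376132-37376431 on the plus strand, and Bub1b, a spindle checkpoint kinase, at chr2:118597961-118598260 on the plus strand.
Top2a: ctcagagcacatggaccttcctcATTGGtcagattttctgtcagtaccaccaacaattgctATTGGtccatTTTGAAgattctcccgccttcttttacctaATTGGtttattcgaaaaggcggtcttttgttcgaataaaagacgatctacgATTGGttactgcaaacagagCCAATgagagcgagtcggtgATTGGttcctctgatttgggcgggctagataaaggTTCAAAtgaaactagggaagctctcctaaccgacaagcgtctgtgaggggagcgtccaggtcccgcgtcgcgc
Mki67: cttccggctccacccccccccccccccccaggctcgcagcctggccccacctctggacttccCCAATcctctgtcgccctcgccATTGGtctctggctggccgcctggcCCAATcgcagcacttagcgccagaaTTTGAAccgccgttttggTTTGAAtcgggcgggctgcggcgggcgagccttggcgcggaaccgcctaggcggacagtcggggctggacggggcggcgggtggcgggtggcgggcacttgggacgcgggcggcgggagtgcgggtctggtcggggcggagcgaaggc
Kif11: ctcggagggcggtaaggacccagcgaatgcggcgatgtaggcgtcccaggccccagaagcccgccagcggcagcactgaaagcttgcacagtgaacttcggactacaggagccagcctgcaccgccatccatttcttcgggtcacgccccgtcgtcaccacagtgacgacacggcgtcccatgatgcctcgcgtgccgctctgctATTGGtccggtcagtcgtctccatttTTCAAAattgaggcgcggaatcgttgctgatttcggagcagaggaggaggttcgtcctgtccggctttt
Bub1b: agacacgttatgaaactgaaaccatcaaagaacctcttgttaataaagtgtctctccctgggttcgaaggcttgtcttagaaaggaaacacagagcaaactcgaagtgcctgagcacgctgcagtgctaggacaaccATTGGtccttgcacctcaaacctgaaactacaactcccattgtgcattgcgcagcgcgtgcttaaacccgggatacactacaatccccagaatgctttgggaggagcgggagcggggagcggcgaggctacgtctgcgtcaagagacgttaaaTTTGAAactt

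Top2a held 6 copies of CCAAT and 2 of TTTGAA, Mki67 3 and 2, and Kif11 and Bub1b 1 of each. Bub1b did not pass without replicate 2 (-2.50). Their mean log2 ratios were -3.83, -3.57, -3.34 and -3.10.

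Lists of other growth genes had medians nearer the reference than proliferation genes did, and part of their members were not called. Of 15 nucleolar and ribosome assembly genes, 11 were lower and none higher, with a median of -1.15, and 7 were lower after normexp and loess and 2 when the 2-fold difference itself was tested. Nop56 was at -1.71, -1.97 and -1.51 and nucleolin (Ncl) at -1.77, -1.82 and -1.02. Of 18 cytosolic tRNA synthetase genes, 9 were lower, with Aars 3.52-fold and Cars 2.64-fold, whereas Wars was at -0.09 ± 0.14. Of 9 genes of serine and one-carbon metabolism, 5 were lower, and Mthfd1l, a mitochondrial folate enzyme, was 9.99-fold lower. In contrast, the 82 cytosolic ribosomal protein genes centred on the reference, with a median of 0.01 and 2 lower. Lowest was Rpl39l, a ribosomal protein gene expressed in testis, at -2.25, -1.07 and -2.49.

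Fetal genes split in both directions. Of 12 detected in both channels, 7 were lower and 4 higher. The RNA-binding protein Igf2bp1, expressed in embryo and tumour cells, was 59.8-fold lower, at -5.96, -5.98 and -5.76. Dlk1, a marker of fat cell precursors, was 27.9-fold lower, and the imprinted genes H19 and Igf2 were 3.34-fold and 2.92-fold lower. Igf2 fell short of 2-fold after normexp and loess (-0.99), and H19 did not pass when the 2-fold difference itself was tested. Mest, imprinted as well, was 21.5-fold higher in the gland, at 2.98, 5.28 and 5.01. Of 7 pluripotency genes detected in both channels, only Pou5f1 was called, at -1.25, -1.21 and -0.86. Its call was lost after normexp and loess (-0.66) and when the 2-fold difference itself was tested. Nanog and Lin28a were at -0.03 ± 0.09 and -0.01 ± 0.22. Of the markers of other tissues in the mixture, 9 of 15 hepatocyte, 5 of 10 testis and gonad and 2 of 8 kidney tubule genes were not well above background often enough in either channel to be tested. Of 3 hepatocyte genes detected in both channels, 2 were higher and none lower. Of 4 such kidney tubule genes, 1 was lower and none higher, while 1 more was detected in the gland alone and 1 in the reference alone. Albumin (Alb), of the hepatocyte list, was detected in the gland alone and was at least 73.8-fold higher. Of 3 testis and gonad genes detected in both channels, 1 was lower, which was Gata4, a factor of gonad and heart (4.87-fold). Sycp3 of the same list was detected in the gland alone and was at least 14.3-fold higher.

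Outside the lists, high genes among those detected in both channels were Gnai1, an inhibitory G protein subunit (7.87, 7.86 and 7.43, 211-fold), Palmd (148-fold), the vascular and adipocyte amine oxidase Aoc3 (118-fold) and the macrophage lectin Clec10a (112-fold). Detected in the gland alone were Plbd1, at least 459-fold higher, the kinase gene Dapk1, at least 136-fold, and the succinate receptor Sucnr1, at least 103-fold. Mup20, a major urinary protein, was at least 131-fold higher over the 3 mice together but uneven (gland signals of 19272, 364 and 2616). Its log2 ratios were 10.14, 5.99 and 9.01, so the bound does not hold for replicate 2 alone. Its family is near-identical in sequence.

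Among genes detected in both channels, the furthest below the reference was Ptgs2, the inducible cyclooxygenase, with log2 ratios of -6.03, -6.69 and -6.37, or 82.5-fold. Prkg2, a cGMP-dependent kinase, was 59.4-fold lower and Cdkn2a, a tumour suppressor locus active in cultured cells, 46.1-fold. Acod1, an enzyme of activated macrophages, was 34.5-fold lower and Msln (mesothelin) 33.3-fold. Raet1d, Gpr83 and Mycl were 43.7-fold, 36.3-fold and 32.2-fold lower. All 3 mice were far below the reference in each of these genes. Detected in the reference alone were Spinkl, at least 133-fold lower in the gland, Mgarp, at least 63.0-fold, the growth factor Ereg (epiregulin), at least 62.5-fold, Phex, a peptidase of bone, at least 42.4-fold, and the keratinocyte factor Bnc1, at least 34.2-fold.

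**Figure D5:**
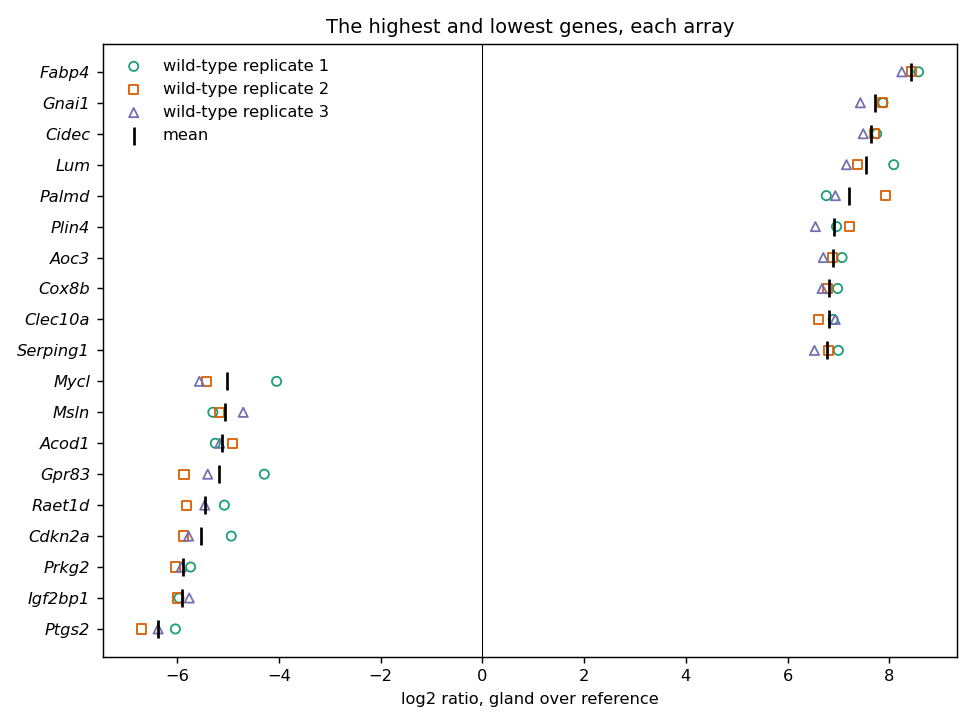
Log2 ratio of gland to reference on each wild-type array (symbols) and the mean (black bar) for the 10 highest and 9 of the 10 lowest called genes among those detected in both channels. Fabp4 is highest at 8.42 and Ptgs2 lowest at -6.37, and the 3 mice lie on the same side of 0 for all 19 genes.

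The same ratios were available in the 4 PRA transgenic glands. Their arrays lay in row 2 of the slide and the wild-type arrays in row 1, so genotype and row cannot be told apart. Cy3, from the same reference RNA, was well above background for 47.2% to 50.6% of their probes. On the wild-type arrays it was 53.2% to 54.0%. Of 34759 probes tested in limma for a difference between the genotypes, 4 (0.0115%) passed an adjusted p of 0.05 and 3149 an unadjusted one. None of 162 genes named here and tested passed after adjustment (limma, with 21 under an unadjusted 0.05, and the methods' t-test, with 17).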

How the data were processed

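The authors deposited Agilent Feature Extraction output for each array (version 12.0 per the labels, 11.5.1.1 per the file headers), with probe positions on mm9. The deposited processed intensity values had been background-subtracted, detrended and dye-normalized by that software. A deposited table of log2 values, centred per probe over the arrays, was not used. Arrays were grouped by sample label, and all lay on 1 slide and 1 scan, with each genotype in its own row of the slide. Control and outlier spots were removed, log2 of Cy5 over Cy3 was computed and spots of a probe were averaged. Probes with either channel well above background on all 3 wild-type arrays were tested against 0 with limma 3.58.1 in R 4.3.3 (lmFit, eBayes, Benjamini-Hochberg). Independent normal noise at the spread of the data was simulated for 35093 probes. Shifts of 1.5 and 3 (log2), up or down, were given to 100 probes each and none to the rest. Of the shifted probes 80 and 98 were found, and 13 unshifted probes were called. Far fewer probes were shifted than were called in the data, and dye bias was not simulated. The simulation therefore gives no rate of false calls for the arrays. Names came from RefSeq tables (33895 probes by accession, 9464 by symbol, 489 by older symbol), and the remaining 12757 probes were left with the array's own name. The members and lists were chosen with earlier results of these data known. Genes named are the sex-linked check, the first 3 tested and the extremes of each list, the 10 highest, 10 lowest and 10 most variable genes and the 5 largest bounds each way. Some genes that this rule names are not reported here. Other list members are examples chosen after their values were seen. Alternatives were normexp (offset 50) and loess, median centring, Aquantile, other filters, treat, an intensity trend, all 7 arrays, other probes per gene and leaving out each array.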

Additional observations from a re-analysis of the deposited data

How the results depend on the processing

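Of 6164 probes higher and 4971 lower in the gland, 4118 and 2498 were called after normexp and loess, and 3600 and 2222 when the 2-fold difference itself was tested (treat). With both channels required, 3120 and 4177 were called. Among probes detected in both channels (3096 and 4133), normexp and loess gave 2951 and 2202, and treat gave 1644 and 1604. Treat also left 4 of 7 higher epithelial, 5 of 8 dendritic cell and antigen presentation, 1 of 2 T cell, 1 of 2 circadian and 1 of 3 cholesterol synthesis genes, and 2 of 5 lower cholesterol synthesis, 5 of 9 tRNA synthetase 3 of 5 serine and one-carbon, 1 of 2 circadian and 0 of 2 cytosolic ribosome genes, and it ended the calls of 23 named genes, which were Xist, Lep, Epcam, Krt7, Krt19, Glycam1, Adgre1, H2-Eb1, Cd3d, Cd79b, Ifi44l, Atp5b, Atp5c1, Hmgcs1, Igf1r, Fos, Mki67, Pcna, Bub1b, Ncl, Rpl39l, H19 and Pou5f1. It left 8 of 11 higher complement, 4 of 6 basement membrane and 7 of 9 growth hormone, insulin-like growth factor and steroid signalling genes. Also left were 16 of 17 white adipocyte, 6 of 7 endothelial, 6 of 7 macrophage, 5 of 6 Schwann cell and 11 of 12 fatty acid oxidation genes. For hormone-sensing and brown fat genes it was 3 of 4, for milk, mast cell and lower B cell genes 2 of 3, and for lower fetal genes 6 of 7. Leaving out each mouse gave 5485 to 6122 higher and 4415 to 5009 lower, and with both channels detected 2798 to 3130 and 3676 to 4173. Median centring, an intensity trend and the spread of all 7 arrays kept each count within 1.5 times, as did dropping the filter (6994 and 5893 over all probes). Aquantile leaves the ratios as they are, so it could not change a call. The 4 probes differing between genotypes became 15 without the filter, 1 by the methods' t-test and 1 to 13 when each array was left out. With a replicate block the count was 0 by limma (lowest adjusted p 0.300, 3412 under an unadjusted 0.05). Same-numbered arrays of the genotypes deviated with correlations of 0.10, -0.30 and 0.03, so the numbers were not taken as pairs. Named genes had 2090 values under alternatives, including 164 under Aquantile that could not change. Of the 2090 values, 48 lost their call, 22 gained one and 27 turned sign, in 16 genes that were not called with all 3 arrays. Of these, only Mlxipl by its probe brightest in Cy5 (4.28) and Zfp697 without replicate 1 were called after the turn. Leaving out each array gave -1.80 to 1.25 for Zfp697, -1.89 to 1.91 for Fabp3, -2.21 to 1.08 for Pgam2, -2.54 to 0.73 for Actn3 and -1.23 to 1.41 for Myom2. It gave -0.027 to 0.56 for Krt8, -0.29 to 0.026 for Pdgfra, -0.19 to 0.19 for C7, -0.025 to 0.70 for Thy1, -0.33 to 0.040 for Per1, -0.12 to 0.10 for Per2, -0.069 to 0.016 for Nanog and -0.13 to 0.065 for Lin28a. After normexp and loess Kdm5d was at 0.019, Myom2 at 0.36, Zfp697 at 0.25, Per2 at 0.11, Wars at 0.13, Nanog at 0.089 and Lin28a at 0.076, and after median centring Myom2 was at 0.0082, Per2 at 0.017 and Lin28a at 0.013. The median over the probes of Per2 was 0.32. After normexp and loess the calls of Ddx3y (-0.83), Cdh15 (-0.96), Myog (-0.76), Igf2 (-0.99), Cox7b2 (-0.68) and Pou5f1 (-0.66) were lost. The cause was not tested. Low signal limits the genes detected in 1 channel to bounds.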
